A study of Mus musculus with 48 samples.

Results

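The transition proteins and protamines are the small basic proteins that take the place of histones on sperm DNA. Their genes were followed across mouse testis, ovary, liver, kidney and hypothalamus. Every probe set whose single gene symbol in the platform annotation was Tnp1, Tnp2, Prm1, Prm2 or Prm3 was taken, which gave 8 of the 22626 probe sets tested, for all 5 genes out of 12393 with a single symbol. Tnp1 had 2 probe sets, Prm1 had 3, and Tnp2, Prm2 and Prm3 had 1 each. The arrays covered 8 groups, namely testis, ovary, and liver, kidney and hypothalamus of male and of female mice. Each group had 3 RNA samples, each read on 2 arrays, for 48 arrays in all. The labels describe purchased RNA from pools of 10 healthy animals and give no strain, age or treatment. They name polyA-selected RNA for testis, ovary, liver and kidney and total RNA for hypothalamus, while another field gives total RNA throughout. Whether different pools of animals lie behind the 3 RNA samples is not stated, so p-values measure only the spread between these samples, which may be technical.

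After meiosis the round spermatid shuts down transcription in steps and packs its DNA ever more tightly. Testis-specific histone variants loosen the nucleosomes, the transition proteins TNP1 and TNP2 replace the histones, and the protamines PRM1 and PRM2 then replace the transition proteins in the elongating spermatid. Protamine 1 coils DNA directly, and protamine 2 is made as a precursor that is trimmed after it binds. Prm3 lies between Prm2 and Tnp2 and encodes an acidic protein of the spermatid cytoplasm that does not bind DNA as the other protamines do. The messages are transcribed in round spermatids, held in ribonucleoprotein particles and translated days later. The transcription factor CREM, with its partner FHL5 (ACT), is known to drive many of these promoters through sites related to the cyclic AMP response element.

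The proximal promoters are shown because all 5 genes were read in the same tissue and the region is where CREM and the TATA-binding machinery are known to act. The sequences are the 120 bases before each RefSeq start in build GRCm38.p6, written 5′ to 3′ on the gene's own strand, which is the minus strand for all 5. The Tnp1 stretch is chr1:73015900-73016019, and those of the cluster are chr16:10788656-10788775 (Tnp2), chr16:10796824-10796943 (Prm1), chr16:10792106-10792225 (Prm2) and chr16:10790915-10791034 (Prm3). Capitals mark TGACNTCA read on either strand and TATA within 50 bases of the start, including runs of overlapping matches. The spelling TGACNTCA was chosen after these promoters were read.
Tnp1: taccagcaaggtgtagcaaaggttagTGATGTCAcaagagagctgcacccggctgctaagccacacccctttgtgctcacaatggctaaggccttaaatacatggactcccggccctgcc
Tnp2: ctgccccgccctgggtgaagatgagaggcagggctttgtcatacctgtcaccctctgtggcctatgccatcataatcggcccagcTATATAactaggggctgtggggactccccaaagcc
Prm1: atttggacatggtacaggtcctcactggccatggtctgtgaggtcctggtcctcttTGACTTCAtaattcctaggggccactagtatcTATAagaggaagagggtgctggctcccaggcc
Prm2: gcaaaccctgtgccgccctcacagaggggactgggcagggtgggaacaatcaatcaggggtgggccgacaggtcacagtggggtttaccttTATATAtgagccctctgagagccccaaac
Prm3: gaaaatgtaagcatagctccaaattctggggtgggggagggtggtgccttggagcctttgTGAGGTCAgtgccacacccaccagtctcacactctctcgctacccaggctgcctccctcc
TGACNTCA occurred in 3 of the 5 promoters within 250 bases of the start. Tnp1 held it on the opposite strand as TGACATCA, 94 bases before the start. Prm1 held TGACTTCA on its own strand, 64 bases before the start, and Prm3 held TGACCTCA on the opposite strand, 60 bases before the start. Of 32851 RefSeq promoters searched over the same length, 7.49% held TGACNTCA. The palindrome TGACGTCA occurred in 0 of the 5 and in 1.55% of all. TATA within 50 bases of the start was present in Tnp2, Prm1 and Prm2 and in 9.08% of all promoters, and CCAAT on either strand within 250 bases was present in Prm3 alone among the 5 and in 33.8% of all. These matches are descriptions of letters and not measured binding sites.

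The testis samples carried all 5 messages at levels well above those of every other tissue. Intensities are given on the deposited linear scale, on which the 2% trimmed mean of each array is about 500. Each value is the mean of the 2 arrays of an RNA sample. Levels of different probe sets are not set against each other, since each binds with its own strength.

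The transition protein messages were bright in testis and close to the bottom of the scale elsewhere. The main Tnp1 probe set (1415924_at) read 14084, 14684 and 10381 in testis samples 1, 2 and 3. In ovary it averaged 2.35 ± 1.13 (SD, n = 3), and over the 21 RNA samples outside testis it ran from 1.10 to 30.3 with a median of 2.90. All 3 testis values therefore lay far above every other sample. The log2 difference between testis and ovary, taken as log2 of the intensity plus 48.3, was 8.0 (SE 0.16, limma adjusted p = 5.74e-08). The second Tnp1 probe set (1438632_x_at) was dimmer, at 501, 498 and 290 in testis and between 1.10 and 21.2 elsewhere. Its log2 difference from ovary was 3.19 (SE 0.20, limma adjusted p = 5.16e-06). Tnp2, the second transition protein, read 16888, 17532 and 13584 in testis. Outside testis its probe set stayed between 2.60 and 7.95, with 4.32 ± 0.71 (SD, n = 3) in ovary. The log2 difference from ovary was 8.24 (SE 0.15, limma adjusted p = 5.74e-08).

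The protamine messages showed the same division between testis and the other tissues. The brightest Prm1 probe set (1415955_x_at) read 21924, 20766 and 17425 in testis. It was also read at a moderate level elsewhere, from 90.2 to 308 with a median of 146, and at 130 ± 44.8 (SD, n = 3) in ovary. The log2 difference from ovary was 6.92 (SE 0.17, limma adjusted p = 7.39e-08). The other Prm1 probe sets did not share this moderate level. Probe set 1437054_x_at read 6112, 9410 and 6966 in testis and at most 25.4 elsewhere, and 1439379_x_at read 4318, 6807 and 4761 in testis and at most 20.6 elsewhere. Their log2 differences from ovary were 7.23 (SE 0.18) and 6.65 (SE 0.19). In the manufacturer's naming the ending _x_at marks probe sets that share sequence with other transcripts, so these may read more than Prm1. The same holds for the second Tnp1 probe set (1438632_x_at). The Tnp2 probe set (1422419_s_at) ends in _s_at, and what else it may read was not checked.

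Prm2, the precursor protamine, read 20896, 20222 and 16736 in testis. Its probe set ran from 22.4 to 147 in the other tissues and averaged 74.0 ± 32.2 (SD, n = 3) in ovary. The log2 difference from ovary was 7.38 (SE 0.20, limma adjusted p = 1.12e-07). Prm3 read 5254, 8183 and 3134 in testis, the widest relative spread of the 8 probe sets with a coefficient of variation of 45.9%. Outside testis it ran from 27.1 to 123, with 74.4 ± 12.9 (SD, n = 3) in ovary. Its log2 difference from ovary was 5.40 (SE 0.30, limma adjusted p = 2.77e-06).

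**Figure D1:**
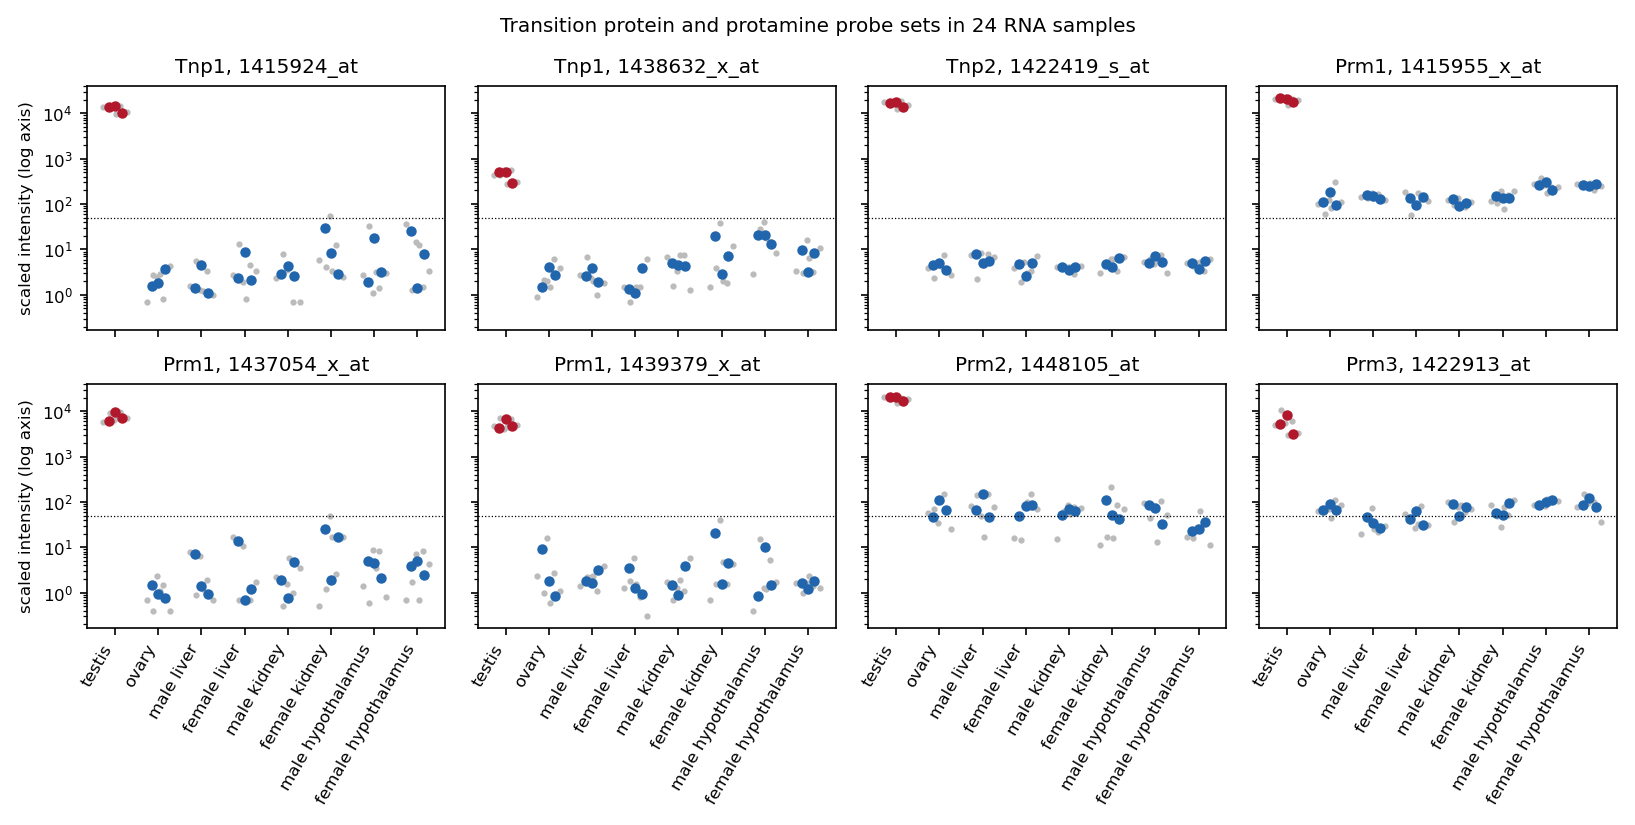
Scaled intensity (log axis) of the 8 probe sets of Tnp1, Tnp2, Prm1, Prm2 and Prm3 in the 8 groups, with large points for RNA samples (mean of 2 arrays), small grey points for single arrays and a dotted line at the pseudocount of 48.3. Testis (red) stands apart in every panel, and among the other groups (blue) the brightest Prm1 probe set lies above the line in all 21 samples.

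All 8 probe sets were called higher in testis than in ovary, where 17.9% of all probe sets were called higher in testis. The median log2 difference over all probe sets was -0.18 in this comparison. Quantile normalization moved the share of higher calls among all calls from 32.8% to 45.5%, and median centring moved it to 57.7%; all 8 probe sets remained called under both. The pseudocount sets the size of the largest differences. With 4 times the pseudocount the log2 difference of Tnp1 (1415924_at) from ovary was 6.07 and with 0.25 times it was 9.81, and that of Tnp2 went from 6.35 to 9.93. In RNA from whole tissue, fewer cells of a type and less RNA per cell cannot be told apart.

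The testis was also set against 3 somatic tissues of males. All 8 probe sets were called higher in testis than in male liver (24.3% of all probe sets were called higher), male kidney (22.2%) and male hypothalamus (21.3%). These comparisons and that with ovary use the same 3 testis samples, so they are given side by side and are not independent. Tnp2 differed by 8.19, 8.25 and 8.20 on the log2 scale from male liver, male kidney and male hypothalamus, and Tnp1 (1415924_at) by 8.0, 7.97 and 7.88. Prm2 differed by 7.26, 7.49 and 7.47. The brightest Prm1 probe set differed by 6.68 from male liver, 7.01 from male kidney and 6.04 from male hypothalamus, and Prm3 by 5.95, 5.43 and 5.13. The limma adjusted p of the 8 probe sets in these 3 comparisons lay between 2.4e-08 and 7.9e-06. For hypothalamus, the tissue and the kind of RNA named in the labels cannot be told apart. There the share of higher calls was 35.2% as fitted, 48.8% with quantile normalization and 58.6% with median centring, and all 8 probe sets remained called under both.

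**Figure D2:**
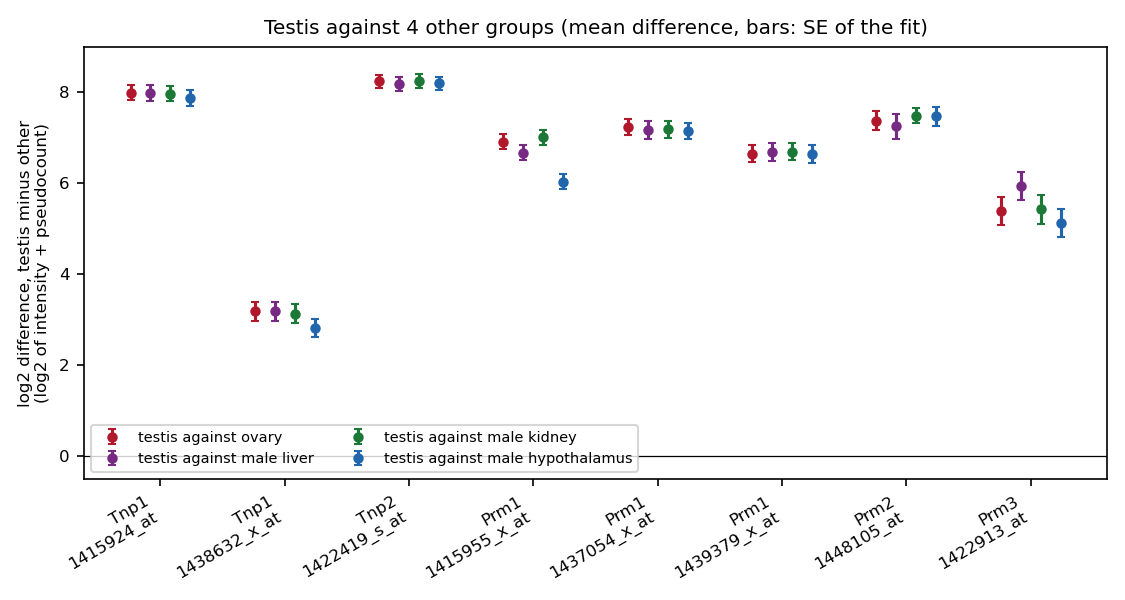
Log2 difference (log2 of intensity plus pseudocount) of testis minus ovary, male liver, male kidney and male hypothalamus for each of the 8 probe sets, with bars for the SE of the fit (3 RNA samples a group). The 4 differences of a probe set lie close together, and those of the brightest Prm1 probe set spread most among the Prm1 probe sets, from 6.04 against hypothalamus to 7.01 against kidney.

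The 3 testis samples were not alike in these messages. Testis 3 was the lowest of the 3 for 6 of the 8 probe sets, and testis 2 was the highest for 5. The median log2 deviation of the 8 probe sets from the mean of the testis samples was 0.11 in testis 1, 0.21 in testis 2 and -0.22 in testis 3. Over all 22626 probe sets, testis 3 was the lowest for 44.8%, and over the 4059 called higher in testis than in ovary for 53.6%. Testis 2 was the highest for 6170 of all probe sets and for 1573 of those 4059. The dimmer Prm1 probe sets were lowest in testis 1, with log2 deviations of -0.27 and -0.26, while the brightest was highest there, at 0.14, so probe sets of the same gene ordered the samples differently. The first and second arrays of testis 3 read the brightest Prm1 probe set at 15198 and 19652, where the highest intensities of any probe set were 17506 and 20798. Those of testis 1 read it at 20830 and 23019, where the highest were 22141 and 23188. Prm3 spanned the widest range, from -0.69 in testis 3 to 0.63 in testis 2, but the 2 arrays of testis 2 read it at 10416 and 5950, a log2 gap of 0.80 within 1 RNA sample.

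Other germ cell and somatic markers differed along the same samples. Of 18 measured haploid spermatid genes, 15 were lowest in testis 3 (median deviation -0.30), and of 13 spermatocyte markers 8 were lowest (-0.27) and the other 5 were highest there. Markers of other organs varied, beside 44.8% of all probe sets lowest in testis 3. All 5 hepatocyte markers (-0.30), 6 of 8 oocyte markers (-0.21) and 4 of 6 kidney tubule markers (-0.145) were lowest there. Of the hypothalamic neuron markers 3 of 6 were (-0.05), and of the granulosa cell markers 2 of 5 (-0.16). Of all 22626 probe sets 7237 were highest in testis 3, and of 8 Sertoli cell markers 6 were (median deviation 0.22), with a summed intensity between 2579 and 3264 over the testis samples. All 4 Leydig cell markers measured (Star, Cyp11a1, Cyp17a1 and Hsd17b3) were highest in testis 3 (0.65), with a summed intensity from 6187 to 12734. The part of these cell types in the spread of the transition protein and protamine messages was not tested.

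**Figure D3:**
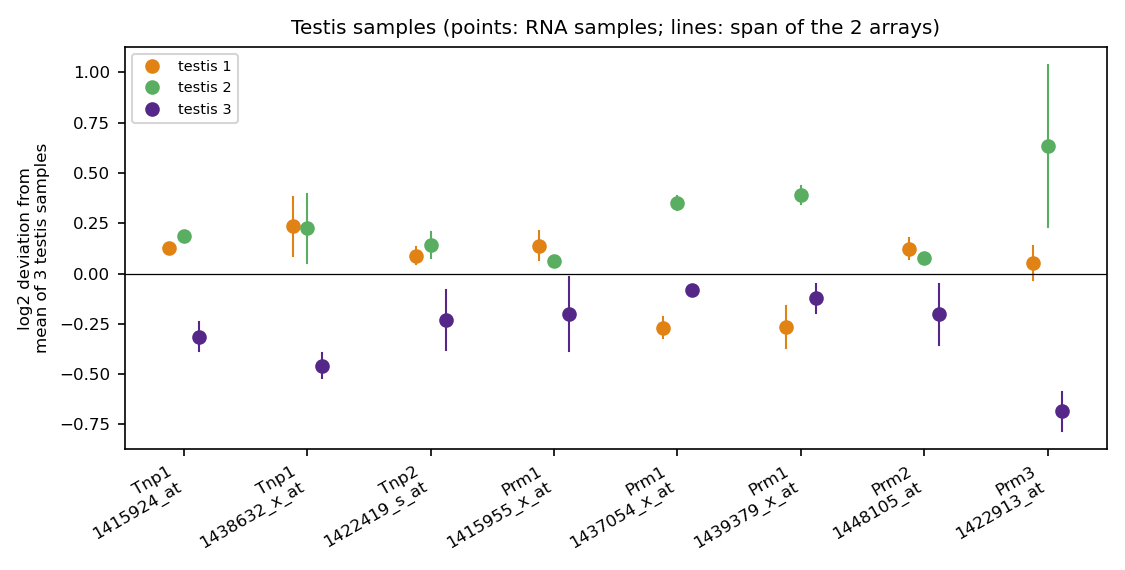
Log2 deviation of each testis RNA sample from the mean of the 3 testis samples, for the 8 probe sets, with lines spanning the 2 arrays of a sample. Testis 3 lies lowest for 6 probe sets, the dimmer Prm1 probe sets are lowest in testis 1, and the line of testis 2 is longest for Prm3.

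Outside testis the probe sets were dim, and most groups overlapped. Both Tnp1 probe sets, Tnp2 and the dimmer Prm1 probe sets lay under the pseudocount of 48.3 in all 21 RNA samples, Prm2 in 7 and Prm3 in 5. The order of group means changed from one probe set to the next: Tnp1 (1415924_at) was highest in female kidney (13.9 ± 14.5, SD, n = 3), Tnp2 in male liver (6.26 ± 1.48), Prm2 in male liver (86.4 ± 53.4) and Prm3 in male hypothalamus (97.8 ± 13.3). For these the next group in order lay within the spread of the samples. No detection calls were used here, so a reading of this size is not shown to be transcript.

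For the brightest Prm1 probe set, the hypothalamus lay above all other tissues outside testis. It read 269, 308 and 208 in male hypothalamus and 265, 248 and 273 in female hypothalamus. In the other 15 RNA samples outside testis it ran from 90.2 in male kidney to 180 in ovary, with no overlap. Male liver (147 ± 17.0, SD, n = 3), female kidney (141 ± 11.0), ovary (130 ± 44.8), female liver (125 ± 27.6) and male kidney (107 ± 19.4) followed in that order. Each of these groups overlapped the next in that order. Of all probe sets, 19.3% had every hypothalamus sample above the 15 others, and of the 8 members only this one did, so this does not set it apart. For hypothalamus, the tissue and the kind of RNA named in the labels cannot be told apart. The dimmer Prm1 probe sets read between 0.85 and 10.2 in hypothalamus, at the level of the other tissues.

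One array held several of the highest readings outside testis. This was the second array of female kidney 1, labelled as its technical replicate. Among the 42 arrays outside testis, 4 of the 8 probe sets had their highest value on it. The other 4 had theirs on 4 different arrays, of male hypothalamus, female hypothalamus and male liver. This count is given without its share over all probe sets, so it sets no probe set apart. Among the 12 kidney arrays, 5 of the 8 were highest on the second array of female kidney 1, where 7.13% of all probe sets were. Tnp1 (1415924_at) read 54.7 on that array and the dimmer Prm1 probe sets 50.4 and 40.5. Of the 18 haploid spermatid genes 2 were highest on that array among the kidney arrays, and of the 13 spermatocyte markers 0 were, while 3 of the 17 genes for histone removal and 1 of the 4 Leydig cell markers were. On that array the median log2 difference from the median of the other kidney arrays was 0.78 for the 8 probe sets and -0.008 over all probe sets. It was 0.91 for the 4 Leydig cell markers and -0.16 for the haploid spermatid genes.

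No difference between males and females in these messages passed the test in liver, kidney or hypothalamus. Of the 8 probe sets, 0 passed in each tissue, where limma called 0.0177% of all probe sets in liver, 0.102% in kidney and 0.0265% in hypothalamus. Of all 22626 probe sets, 574 had an unadjusted limma p under 0.05 in liver, 1027 in kidney and 649 in hypothalamus. Of the 8 probe sets, 0 passed at that level in liver, 0 in kidney and 2 in hypothalamus. These were Prm2, at 86.7, 75.0 and 32.4 in males and 22.4, 25.5 and 36.8 in females, and Tnp1 (1438632_x_at), with a mean of 18.5 ± 4.56 (SD, n = 3) in males and 7.10 ± 3.46 in females. Their male minus female log2 differences were 0.53 (SE 0.19) and 0.25 (SE 0.09), and the limma adjusted p was 0.9999 for both. The Prm2 values overlapped between the sexes, while those of Tnp1 (1438632_x_at) did not, all of them under the pseudocount. Here and for Prm1 in kidney, lack of overlap is given without its share over all probe sets, so it sets no probe set apart. For the brightest Prm1 probe set the male and female kidney samples did not overlap, at 128, 90.2 and 103 in males and 154, 133 and 137 in females. The log2 difference was -0.26 (SE 0.13, limma adjusted p = 1), and it was 0.03 on the first arrays alone and -0.54 on the second arrays alone.

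The sex difference was also compared between tissues. Of the 8 probe sets, 0 passed in each of the 3 pairs, where 0.159% of all probe sets passed for liver against kidney, 0.119% for kidney against hypothalamus and 0% for liver against hypothalamus, in which 493 of 22626 had an unadjusted limma p under 0.05. The brightest Prm1 probe set had the largest difference of sex differences between liver and kidney among the 8, at 0.47 (SE 0.20, limma adjusted p = 0.9999).

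The genes around these messages in the spermatid program were taken by list, each gene by its brightest probe set. Of the testis histone variants, 3 were measured, with a median log2 difference of 6.55 between testis and ovary, and 2 of them passed the test, both higher in testis. H1f9 (the array's Hils1), the linker histone of elongating spermatids, averaged 10228 ± 1857 (SD, n = 3) in testis and 10.1 ± 1.25 in ovary, a log2 difference of 7.44 (limma adjusted p = 6.19e-08). H2al2a, the H2A variant that opens nucleosomes for the transition proteins, averaged 5702 ± 1053 and 12.8 ± 6.89, a difference of 6.55. The probe set of H1f6, the testis linker histone H1t, read 77.4 ± 13.3 in testis and 49.4 ± 22.1 in ovary. The difference was 0.43 (limma adjusted p = 0.0835), and under quantile normalization and under median centring it passed, higher in testis. All 3 variants, H1f6 among them, were called higher in testis than in male liver, male kidney and male hypothalamus.

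Of 17 measured genes for histone removal and protamine loading, 9 were higher in testis than in ovary, 5 were lower and 3 did not pass. The median log2 difference was 1.33. Of all probe sets, 17.9% were called higher and 36.7% lower. Phf7, a reader of histone marks that ubiquitinates H2A, averaged 12741 ± 616 in testis and 130 ± 14.0 in ovary, a log2 difference of 6.17. Brdt, the bromodomain protein that binds hyperacetylated histones, differed by 5.20, Psma8, the proteasome subunit of germ cells, by 4.47, and Cdyl by 4.28. Srpk1, a kinase that phosphorylates protamine 1, and Hspa4l, a heat shock protein of the testis, were among the other genes that were higher, by 2.70 and 3.90. The 5 lower genes were Top2b, a topoisomerase that cuts DNA, Epc1, a subunit of the NuA4 acetyltransferase, Rnf8, a ubiquitin ligase, and Parg and Parp2, enzymes of poly(ADP-ribose). Top2b fell from 792 ± 35.0 in ovary to 294 ± 52.2 in testis, a log2 difference of -1.31 (limma adjusted p = 0.000129). Only Top2b and Epc1 stayed lower under both other normalizations. None of the 5 was called against male liver or male kidney, where 11 of the 17 were higher in testis and 0 lower. Against male hypothalamus 10 were higher and 5 were lower, namely Rnf8, Epc1, Top2b, Parg and Herc2. Of all 22626 probe sets, 11349 were called either way against male liver, 11253 against male kidney and 13668 against male hypothalamus. Of these calls 5501, 5017 and 4810 were higher in testis. For Camk4, a kinase that phosphorylates protamine 2, the probe sets disagreed. The brightest over all samples differed by 0.05 (limma adjusted p = 0.822) and passed, higher in testis, under median centring. Another of its probe sets averaged 705 ± 296 in testis and 38.1 ± 23.5 in ovary, a difference of 3.09 (limma adjusted p = 9.91e-05). For Cdyl and Ppp1cc, a phosphatase subunit with a sperm form, other probe sets were called in the opposite direction: Cdyl by -0.83 and -0.82, and Ppp1cc by -1.18 against 1.33 for its brightest.

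Among the genes for transcription in spermatids, 8 of 10 were higher in testis than in ovary and 2 were lower, with a median log2 difference of 3.17, where 17.9% of all probe sets were called higher and 36.7% lower. Fhl5, the coactivator of CREM, averaged 6172 ± 1552 (SD, n = 3) in testis and 46.8 ± 9.10 in ovary, a log2 difference of 6.04 (limma adjusted p = 2.85e-07). Tcfl5, a basic helix-loop-helix factor of the testis, differed by 6.12, Gtf2a1l, a germ cell form of TFIIA, by 5.10, and Tbpl1 (TRF2), a relative of the TATA-binding protein, by 4.32. Crem itself was represented by 3 probe sets and was not higher on any. Its brightest read 183 ± 15.8 in testis and 292 ± 23.2 in ovary, a difference of -0.56 (adjusted p = 0.00706) that did not pass under quantile normalization or median centring. The other Crem probe sets differed by 0.05 and 0.14 and did not pass. Which of the gene's many transcripts these probe sets read was not tested. Brwd1, a bromodomain protein of spermatids, was the other gene that was lower, by -1.05.

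Of 15 genes for mRNA storage and delayed translation, 9 were higher in testis than in ovary, 5 were lower and 1 did not pass, with a median log2 difference of 1.28. Among all probe sets, 17.9% were higher and 36.7% lower, so the share of lower genes is near the background. In the same testis samples, 1 gene was lower than in male liver and 2 than in male kidney, and 11 were higher in each. Khdrbs1 was among the higher ones in both. Against male hypothalamus 9 were higher and 4 lower, namely Tsn, Tsnax, Paip2 and Paip2b. Of all probe sets, 24.3% were called higher in testis than in male liver, 22.2% than in male kidney and 21.3% than in male hypothalamus. Among all calls in either direction, the higher ones made up 48.5%, 44.6% and 35.2%, and the rest were lower. Ybx2 (MSY2), the Y-box protein that packages stored messages, averaged 11406 ± 1241 (SD, n = 3) in testis and 190 ± 37.3 in ovary, a log2 difference of 5.60 (limma adjusted p = 1.71e-07). Ddx25, an RNA helicase of spermatids, differed by 5.51, Papolb, a cytoplasmic poly(A) polymerase, by 4.82, and Piwil1, a binder of piRNAs, by 4.33. Lower in testis were Paip2, which restrains the poly(A)-binding protein, by -1.87, Elavl1 by -1.31, Tsn and Tsnax, the translin pair, by -0.96 and -0.55, and Khdrbs1 by -0.49. Of these, Khdrbs1 did not pass under quantile normalization, and Khdrbs1 and Tsnax did not under median centring.

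The median log2 difference from ovary was 5.99 over the 18 haploid spermatid genes and 3.42 over the 13 spermatocyte markers, against -0.18 over all probe sets, and every measured gene of both lists was called higher in testis. Ldhc, the testis lactate dehydrogenase, differed by 7.87 and Smcp, of the sperm mitochondrial capsule, by 7.53. Markers of the labelled tissues were read as follows: the 8 oocyte markers were highest in ovary, the 5 hepatocyte markers in liver, the 6 kidney tubule markers in kidney and the 6 hypothalamic neuron markers in hypothalamus. Of the 5 granulosa cell markers, 4 were highest in ovary and Amhr2 in testis, and of the 7 spermatogonia markers 3 were highest in testis. The somatic cell types of the testis were less distinct, with 3 of 8 Sertoli cell markers highest in testis, 3 in ovary and 2 in male hypothalamus, and 2 of 4 Leydig cell markers in testis and 2 in ovary.

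**Figure D4:**
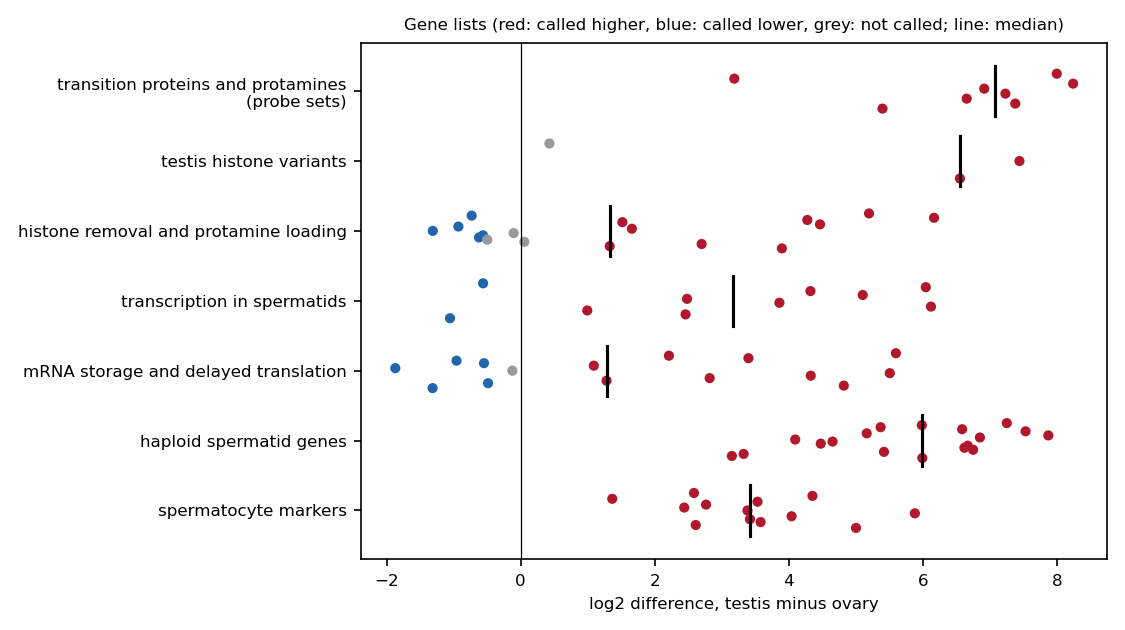
Log2 difference of testis minus ovary for the 8 probe sets of the transition proteins and protamines and for the measured genes of 6 lists (1 point a gene, its brightest probe set), in red where called higher in testis, in blue where called lower and in grey where not called, with a black line at each median. The 18 haploid spermatid genes and 13 spermatocyte markers are all red, and the lists for histone removal and mRNA storage hold points on both sides of 0.

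The genes whose pattern was closest to each message were ranked by Pearson correlation of log2 values over the 24 RNA samples. These coefficients mostly restate the step between the 3 testis samples and the 21 others and carry no test. For Tnp1 the closest were Akap4, of the sperm fibrous sheath (r = 0.998), Spesp1, an equatorial segment protein of the sperm head, and Cby2. For Tnp2 they were Cby2, Hils1 (H1f9) and Akap4, all above 0.999. For Prm1 they were Catsperz, a subunit of the sperm calcium channel (0.994), H2al2a and Tssk3, a testis serine kinase. For Prm2 they were Prss21, a testis serine protease (0.993), Hils1 and Tescl. Prm3 gave a different set, Spn-ps (0.991), Bag5, a cochaperone, and Pias1, a SUMO ligase, and both Bag5 and Pias1 were also read outside testis, at up to 482 and 545. Among the 8 probe sets themselves the coefficients lay between 0.965 (Prm2 with Prm3) and 0.999 (the dimmer Prm1 probe sets).

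Prm1, Prm2, Prm3 and Tnp2 lie side by side on chromosome 16, while Tnp1 lies on chromosome 1. Of the 10 nearest protein-coding genes, 5 on either side, 9 were measured. Of these, 0 were called higher in testis than in ovary, 2 were called lower and 0 had their highest group mean in testis, with a median log2 difference of -0.22. Among all probe sets, 17.9% were called higher and 36.7% lower, so these counts do not set the neighbours apart. Socs1, a suppressor of cytokine signalling and the first neighbour on the Tnp2 side, read 124 ± 35.3 (SD, n = 3) in testis and 108 ± 11.8 in ovary, a difference of 0.13 (limma adjusted p = 0.575). Litaf and Txndc11 were the lower ones, by -1.15 and -1.83. Around Tnp1, 7 of 10 neighbours were measured, of which 0 were called higher and 4 lower in testis, and 1, Arpc2, had its highest group mean in testis. Igfbp5, the gene next to Tnp1 and a binding protein of insulin-like growth factors, read 43.2 ± 6.53 in testis and 2126 ± 82.0 in ovary, a log2 difference of -4.57 (limma adjusted p = 1.31e-07).

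**Figure D5:**
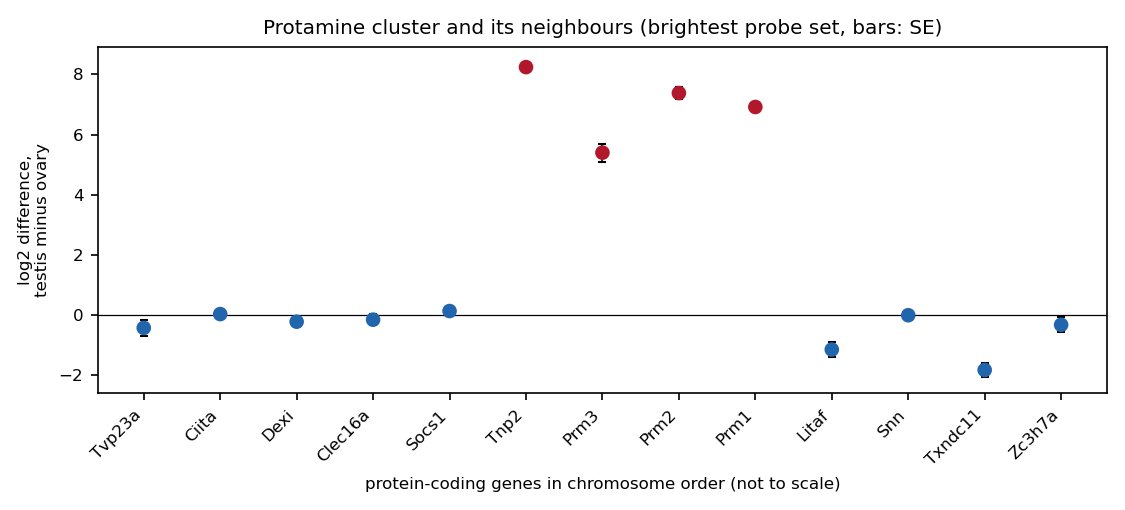
Log2 difference of testis minus ovary (bars: SE of the fit) for Tnp2, Prm3, Prm2 and Prm1 (red) and the measured protein-coding neighbours on chromosome 16 (blue), in chromosome order and not to scale. The 4 members lie between 5.40 and 8.24, and the 9 measured neighbours lie at or below 0.13.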

How the data were processed

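RNA from 8 groups of mouse tissue was read on 48 Affymetrix arrays, grouped by their titles. The authors deposited a linear intensity for every probe set on every array; how probes were summarised, and with what software, is not given in the sources used here. Probe sets were named from the platform annotation (20380 with 1 gene symbol, 691 with several, 1555 with none), and 64 controls were left out. Arrays were scaled to a 2% trimmed mean of 500 (deposited, it lay between 500.11 and 500.23), log2 of intensity plus 48.3 was taken, the 20th percentile of all values, and the 2 arrays of each RNA sample were averaged. The pseudocount shrinks differences of dim probe sets.

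Groups were compared with limma 3.58.1 (lmFit and eBayes) in R 4.3.3 in fits of 6 RNA samples, and sex differences between tissues in fits of 18, with Benjamini-Hochberg adjustment over all 22626 probe sets and a threshold of 0.05. No filter on low values was used, since in the testis comparisons most members would have passed through testis alone. The fits were tested on simulated data. Titles number the samples of each group from 1 to 3. For the 3 sex comparisons, deviations of samples with the same number correlated above 0.1 in every pair (0.10 to 0.56). The numbers may therefore pair the samples there, on this evidence from the data and not from the labels. Samples with different numbers were not compared in this way. The sex differences, SEs and p-values reported above come from fits without this pairing, and a fit with the number as a block was run as an alternative. Blocking on the number changed no call of the 8 probe sets, and among all probe sets it gave 7 calls in place of 4 in liver, 36 in place of 23 in kidney and 2 in place of 6 in hypothalamus.

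The members and 14 gene lists were chosen with earlier results of these data known. Of 161 listed genes, 125 were measured, each standing by its brightest probe set, and up to 4 called genes in each direction with the largest difference between testis and ovary were named; others named were chosen after their values were seen. Promoter sequences and gene order came from RefSeq tables of GRCm38.p6, in which all 5 genes were matched; the files name no build. The number of arrays limits the precision. Figures were drawn with matplotlib 3.10.9.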

Additional observations from a re-analysis of the deposited data

How the results depend on the processing

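The count of 8 of 8 probe sets higher in testis held in all 4 testis comparisons, and that of 0 of 8 in the 3 sex comparisons. The alternatives were other pseudocounts, quantile normalization, median centring, first or second arrays alone, the replicate block, all 8 groups in 1 fit, an intensity trend and each replicate left out. In the 3 comparisons of sex differences 0 of 8 also held under these, except that all 8 groups in 1 fit was not run there. Between testis and another group, deviations of samples with the same number correlated between -0.06 and 0.19, in part as high as the lowest between the sexes. Whether the numbers pair those samples was not tested, and the block left 8 of 8 called. A filter on low values is no support for either count: in the testis comparisons all 8 passed it, most through testis alone, and between the sexes only 1 of the 8 was left to test in liver, 0 in kidney and 1 in hypothalamus. Counts over all probe sets between the sexes were less stable; the cause was not tested. In hypothalamus 6 calls became 2 at 0.25 times the pseudocount, 2 with the replicate block and 2 to 8 with a replicate left out. In kidney 23 became 3 at 4 times the pseudocount, 6 on second arrays, 36 with the block, 119 with all groups in 1 fit and 0 to 29 with a replicate left out. In liver 4 became 7 with the block, 23 with all groups and 4 to 6 with a replicate left out. Intensities near the bottom of the scale carry no order that these arrays could resolve.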
